A study of Homo sapiens with 6 samples.

Results

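NFIA, NFIB, NFIC and NFIX, the 4 genes of the nuclear factor I (NFI) family, and POU3F1, POU3F2 and POU3F3, 3 genes of the POU class III family, were followed through the RNA of 4 atypical teratoid rhabdoid tumor (AT/RT) cell lines. Their rows were found by gene symbol, and they are 7 of the 36532 genes in the transcript tables. AT/RT is a malignant brain tumor of young children in which SMARCB1, a subunit of the SWI/SNF chromatin remodelling complex, is usually lost. Total RNA of the lines CHLA 02 and CHLA 05 gave 1 library each, and that of CHLA 04 and CHLA 06 gave 2 technical replicates each, 6 libraries in all. By earlier work that the study cites, CHLA 02, CHLA 04 and CHLA 05 belong to a neurogenic group 1 and CHLA 06 to group 2. All lines were grown alike, in DMEM:F12 supplemented with EGF at 20 ng/mL, basic FGF at 20 ng/mL and 2% B-27, and the labels name no treatment or introduced gene for any of them. Each line is 1 biological sample, so no line was compared with another by a test, and the spread between cultures was not measured.

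NFI proteins bind DNA as dimers at the palindrome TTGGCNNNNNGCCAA and at its single arms, and in the developing brain they take part in the change of neural progenitors from making neurons to making glia. POU class III proteins are transcription factors with a POU-specific domain and a POU homeodomain that read octamer-like sequences such as ATGCAAAT. They act in neural progenitors, in layers of the cortex and in Schwann cells, and their genes consist of a single exon.

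Expression is given as TPM, a transcript abundance scaled to transcript length and library size, summed over the transcripts of a gene. The libraries held 10265899 to 20520229 reads on transcripts, as worked back from TPM, and 3 reads on POU3F2 were worth 0.0717 to 0.145 TPM. A pair of lines was called different at a gene when log2(TPM + 2), averaged over technical replicates, differed by 1 or more, which is a change of 2-fold for a well expressed gene and a larger one for a weakly expressed gene. The rule was read over the 16343 genes that reached 1 TPM in at least 1 library. Of the 7 genes 6 did so and POU3F3 did not. Between technical replicates, where no gene differs by design, the rule called 3.98% of genes in CHLA 04 and 0.936% in CHLA 06, and none of the 7.

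The study describes these lines as lacking SMARCB1 expression. In the transcript values SMARCB1 had 13.5 to 26.2 TPM over the libraries, on 114 to 202 reads. A TPM summed over transcripts does not show whether the RNA is intact or gives protein. Whether these reads come from intact SMARCB1 transcripts was not tested, so the values are not read as SMARCB1 being present. At most genes that set CHLA 06 far apart from CHLA 04 and CHLA 05, CHLA 02 lay in between. Of 339 genes at least 10-fold lower in CHLA 06 than in both CHLA 04 and CHLA 05, CHLA 02 had an intermediate TPM at 83.2%, at a median of 46.3% of the way up from CHLA 06. Of 337 genes at least 10-fold higher in CHLA 06, it was intermediate at 89.9%, at a median of 55.6% of the way up. The part of this in the CHLA 02 values below was not tested, and the comparisons among CHLA 04, CHLA 05 and CHLA 06 do not use that library.

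Each NFI gene lay above 68.8% of expressed genes in every library, and the 4 genes made up the NFI pool in different proportions. CHLA 05 differed most in its makeup, with high NFIA and NFIX and low NFIB. NFIB led in CHLA 02, CHLA 04 and CHLA 06, and NFIC was nearly level. The summed TPM of the 4 genes was 544 for CHLA 02, 852 and 750.3 for the CHLA 04 replicates, 604 for CHLA 05, and 387 and 363 for those of CHLA 06.

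**Figure D1:**
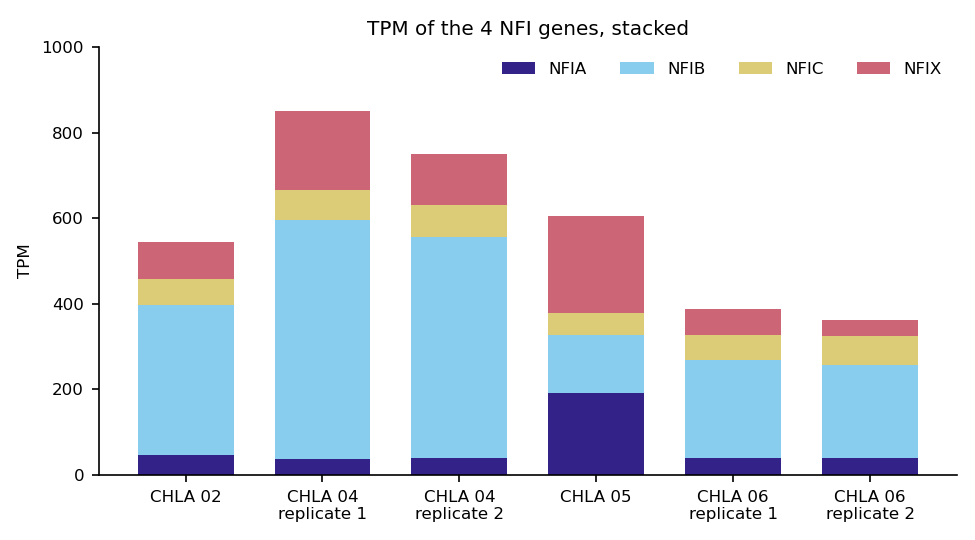
TPM of NFIA, NFIB, NFIC and NFIX stacked for each of the 6 libraries, with the bar height as their sum. NFIB takes 58.9% to 68.6% of the bar in 5 libraries and 22.4% in CHLA 05, where NFIX takes 37.4% and NFIA 31.5%.

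NFIA (chr1:60865259-61462793, plus strand, GRCh38) promotes the onset of gliogenesis in the spinal cord and brain. Its level was 46.4 TPM in CHLA 02, 37.9 and 40.1 TPM in CHLA 04, 191 TPM in CHLA 05, and 39.8 TPM in both libraries of CHLA 06. CHLA 05 stood alone, at 4.11 times CHLA 02, 4.89 times CHLA 04 and 4.79 times CHLA 06, while the libraries of CHLA 04 enclosed those of CHLA 06. The 10530 NFIA reads of CHLA 05 put a 95% counting interval of 187 to 194 TPM around its value. Intervals of this kind cover counting error only.

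NFIB (chr9:14081843-14398983, minus strand) is needed for lung and forebrain maturation. It measured 351 TPM in CHLA 02, 557 and 515 TPM in CHLA 04, 135 TPM in CHLA 05, and 228 and 218 TPM in CHLA 06. No 2 lines overlapped, and the order from CHLA 04 down to CHLA 05 spanned 3.96-fold. The step between the highest and lowest line was the reverse of the one at NFIA, for which CHLA 05 was the highest line and CHLA 04 the lowest by mean. NFIB nevertheless remained above the level of 92.7% of expressed genes in CHLA 05, where expressed means above 0 TPM.

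NFIC (chr19:3359563-3469217, plus strand) is best known for its part in tooth root formation and is broadly expressed. Its levels were 60.6 TPM in CHLA 02, 71.9 and 75.1 TPM in CHLA 04, 52.3 TPM in CHLA 05, and 59.9 and 68.1 TPM in CHLA 06. It was called in none of the 6 pairs of lines, and CHLA 02 lay within the libraries of CHLA 06. Its range over lines was 0.48 on the log2(TPM + 2) scale, and 80.9% of all genes tested had a range as wide or wider.

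NFIX (chr19:12995608-13098796, plus strand) acts in neural stem cells and in fetal muscle. It measured 86.3 TPM in CHLA 02, 185 and 120.3 TPM in CHLA 04, 226 TPM in CHLA 05, and 59.5 and 37.1 TPM in CHLA 06. CHLA 05 was highest and CHLA 06 lowest, at a ratio of 4.68. NFIX also had the largest gap between technical replicates of the 4 NFI genes. Replicate 1 exceeded replicate 2 by 1.54-fold in CHLA 04 and by 1.60-fold in CHLA 06, which are gaps that 17.9% and 4.23% of genes reached. The differences of CHLA 04 and CHLA 06 from CHLA 02, at 0.78 and -0.85 on the log2(TPM + 2) scale, are near the size of these technical gaps, with 152.6 ± 45.7 TPM (SD, n = 2 technical) in CHLA 04 and 48.3 ± 15.8 TPM in CHLA 06.

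**Figure D2:**
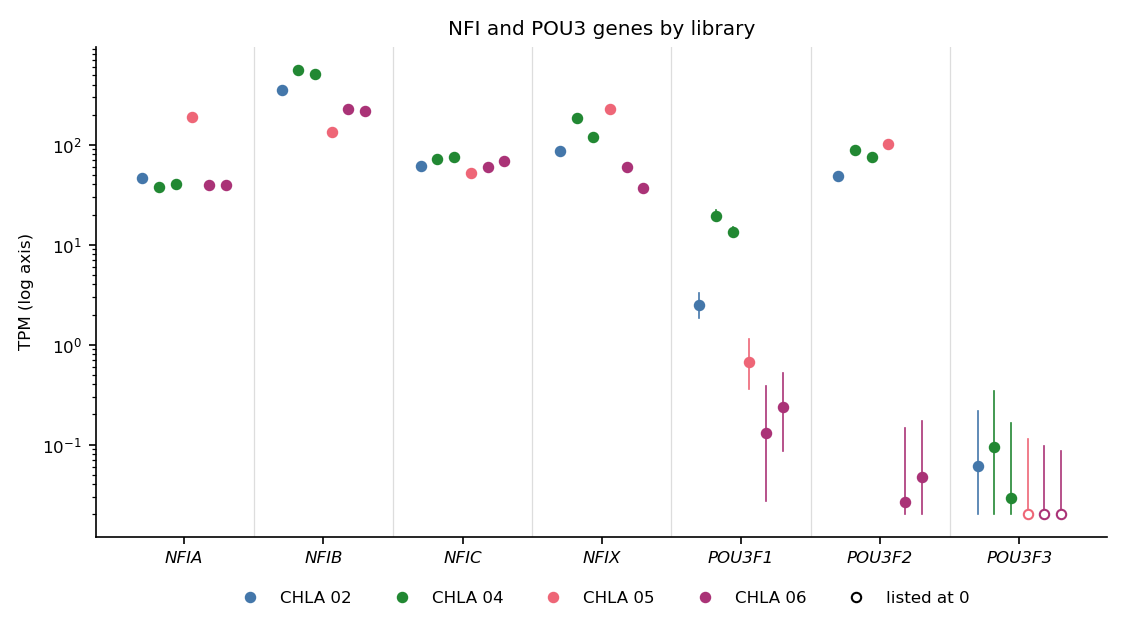
TPM of the 7 genes on a log axis, 1 point per library coloured by cell line, with 95% counting intervals as vertical lines; open points are listed at 0 and are drawn at the bottom of the axis. The NFI genes stay between 37.1 and 557 TPM, whereas POU3F2 lies at 48.9 to 102 TPM in 4 libraries and at 0.0478 TPM or less in those of CHLA 06.

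POU3F1 and POU3F2 varied over a wider range than any of the NFI genes. POU3F2 was abundant in 3 lines and almost absent from CHLA 06, POU3F1 was highest in CHLA 04, and POU3F3 gave 2 reads at most in any library. The start sites of all 3 are shown because the genes differed so much in level and yet each held more than 1 copy of the same promoter element, the CCAAT box. The sequences are RefSeq start site windows of GRCh38.p14, 250 bases before to 50 after the start, written 5′ to 3′ on the strand of the gene, with each box (CCAAT or ATTGG) in capitals.

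POU3F1, chr1:38046744-38047043, minus strand: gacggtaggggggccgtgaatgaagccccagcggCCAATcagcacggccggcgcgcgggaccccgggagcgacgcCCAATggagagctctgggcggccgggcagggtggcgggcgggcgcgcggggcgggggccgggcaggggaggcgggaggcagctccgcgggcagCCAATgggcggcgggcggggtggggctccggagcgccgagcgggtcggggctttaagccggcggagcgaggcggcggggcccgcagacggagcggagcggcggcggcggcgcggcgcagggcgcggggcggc
POU3F2, chr6:98834324-98834623, plus strand: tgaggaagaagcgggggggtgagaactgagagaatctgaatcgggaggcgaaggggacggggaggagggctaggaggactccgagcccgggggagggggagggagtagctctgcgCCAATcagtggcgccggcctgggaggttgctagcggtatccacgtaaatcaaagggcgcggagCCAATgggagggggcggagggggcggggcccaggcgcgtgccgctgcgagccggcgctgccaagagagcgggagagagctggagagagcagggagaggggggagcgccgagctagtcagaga
POU3F3, chr2:104853865-104854164, plus strand: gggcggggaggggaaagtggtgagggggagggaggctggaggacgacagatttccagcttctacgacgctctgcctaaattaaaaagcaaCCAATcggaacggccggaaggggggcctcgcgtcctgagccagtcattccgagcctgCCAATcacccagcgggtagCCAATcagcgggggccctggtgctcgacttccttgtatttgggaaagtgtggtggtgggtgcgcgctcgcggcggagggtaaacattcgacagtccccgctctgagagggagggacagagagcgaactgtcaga

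The windows held 3, 2 and 3 CCAAT boxes, in the order POU3F1, POU3F2 and POU3F3. Of 35116 RefSeq windows of the same length, 34.6% held at least 1 such box on either strand, 10.8% at least 2 and 3.26% at least 3. Among the 19 windows of the NFI genes, 4 held a box and 1 held 2. A single arm of the NFI palindrome (TTGGC or GCCAA) occurred 2, 3 and 2 times in the POU3 windows. Of all windows, 45.6% held at least 1 arm, 14.6% at least 2 and 3.82% at least 3. A GCCAAT stretch counts under both motifs. No window of the 7 genes held the full NFI palindrome, which was found in 0.0285% of all windows. These matches describe letters and say nothing of binding.

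POU3F1 (chr1:38043827-38046794, minus strand), also called OCT6, drives the maturation of Schwann cells. Its level was 2.47 TPM in CHLA 02, 19.5 and 13.4 TPM in CHLA 04, 0.671 TPM in CHLA 05, and 0.131 and 0.237 TPM in CHLA 06. The lines ranked in the order CHLA 04, CHLA 02, CHLA 05, CHLA 06. The 95% counting interval of CHLA 05, 0.358 to 1.15 TPM, overlapped those of both CHLA 06 libraries, which reached 0.382 and 0.515 TPM. The values rest on 245 and 275 reads in CHLA 04, against 49 reads for CHLA 02, 13 for CHLA 05, and 3 and 6 for the CHLA 06 replicates. From these reads CHLA 04 was 6.38 times CHLA 02, with a 95% counting interval of 4.75 to 8.73, and 23.4 times CHLA 05, with an interval of 13.6 to 44.3. CHLA 04 was 84.5 times CHLA 06, with an interval of 44.2 to 186. With the CHLA 06 reads pooled, CHLA 05 was 3.6 times CHLA 06, with an interval of 1.43 to 9.56.

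POU3F2 (chr6:98834592-98839490, plus strand), also called BRN2, is expressed in neural progenitors and upper-layer neurons. It measured 48.9 TPM in CHLA 02, 89.1 and 74.6 TPM in CHLA 04, 102 TPM in CHLA 05, and 0.0264 and 0.0478 TPM in CHLA 06. The 2 libraries of CHLA 06 held 1 and 2 reads on the gene, against 1601, 1846, 2522 and 3247 reads in the other 4. CHLA 05 was 2701 times CHLA 06 by these reads, with a counting interval of 923 to 13105, and CHLA 02 was 1299 times CHLA 06, with an interval of 444 to 6306. Only 1.41% of all genes tested had a range over lines as wide as the 5.67 of POU3F2 on the log2(TPM + 2) scale. Among the other 3 lines the gene varied by 2.08-fold. In bulk RNA, fewer cells that express a gene and less of its RNA per cell cannot be told apart.

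POU3F3 (chr2:104855511-104860471, plus strand), also called BRN1, works beside POU3F2 in cortical neurons. It had 0.0603 TPM in CHLA 02, 0.0953 and 0.0292 TPM in CHLA 04, and was listed at 0 in CHLA 05 and in both libraries of CHLA 06. These are 2, 2 and 1 reads, below the 3 reads that a count of 0 allows in a library, which were worth 0.0708 to 0.143 TPM. No difference between lines was detectable at this depth. The deposited transcript of POU3F3 starts 1396 bases inside the RefSeq start site, so reads on that first stretch are not in the gene's count.

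Some non-coding genes around POU3F3 had more reads than the gene itself. LINC01158, a long non-coding gene on the opposite strand that lies 2328 bases from POU3F3, had 31.8 TPM in CHLA 02, 118 and 103 TPM in CHLA 04, 80.5 TPM in CHLA 05, and 0.191 and 0 TPM in CHLA 06. RP11-13J10.1, which overlaps POU3F3 on the same strand without sharing an exon, had 1.69, 10.1, 4.25 and 5.19 TPM in the first 4 libraries, on 5 to 19 reads, and was listed at 0 in CHLA 06. LINC01159 and LINC01114, which were named after their values were seen, reached 10.4 TPM in CHLA 04 and 20.4 TPM in CHLA 05, and CHLA 06 had at most 0.0377 TPM of either. These 4 non-coding genes were thus at or near 0 in CHLA 06, the line with almost no POU3F2. AC010884.1 was listed at 0 in every library, and AC018730.4 had 1 read at most.

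Reads of one POU3 gene cannot be told from those of another where the sequences agree over a whole read. Whether reads with mismatches or partial matches were taken for another gene was not tested. The longest exact run shared by any 2 of the 3 genes was 83 bases, between POU3F1 and POU3F3, inside the coding sequence of both, and shorter than the read length of 125 bases. It is shown because a trimmed read inside it would match both genes exactly, at chr1:38045806-38045888 (minus strand) for POU3F1 and chr2:104856567-104856649 (plus strand) for POU3F3. POU3F2 shared at most 45 bases with either.

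POU3F1 and POU3F3 shared run: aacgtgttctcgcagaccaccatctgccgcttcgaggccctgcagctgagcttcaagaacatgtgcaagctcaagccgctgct

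Over all pairs of lines, 5 of the 6 genes tested were called in at least 1 pair and NFIC in none, against 42.0% of all genes. CHLA 04 against CHLA 02 called 1 gene, POU3F1, where 16.5% of all genes were called. CHLA 05 against CHLA 02 called 4, with NFIA, NFIX and POU3F2 higher in CHLA 05 and NFIB lower, against 19.6% of genes. CHLA 06 against CHLA 02 called POU3F1 and POU3F2, both lower in CHLA 06, against 9.32% of genes. POU3F2 passed the rule in the comparison of CHLA 05 with CHLA 02 by 0.03 on the log2(TPM + 2) scale, and POU3F1 in that of CHLA 06 with CHLA 02 by the same margin. The first call was lost at 0.93 after quantile normalization and after rescaling by the median ratio, and the second at -0.82 after quantile normalization. The NFIB call in CHLA 05 against CHLA 02 was lost, at -0.51, when the most abundant transcript alone was read.

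CHLA 05 against CHLA 04 called 3 genes, with NFIA higher in CHLA 05 and NFIB and POU3F1 lower, where 16.6% of genes were called. CHLA 06 against CHLA 04 called 4 genes, NFIB, NFIX, POU3F1 and POU3F2, all lower in CHLA 06, against 29.4% of genes. CHLA 06 against CHLA 05 called NFIA, NFIX and POU3F2, all lower in CHLA 06, against 25.9%. None of the 6 genes tested was called higher in CHLA 06 than in another line. Of all 16343 genes, 2034 were called higher in CHLA 06 than in CHLA 04, 1584 than in CHLA 05 and 323 than in CHLA 02. Such calls were a small part of all genes, so their absence among so few genes is not read as a result. The comparisons share lines, so their counts are not independent of each other. The median of all genes was itself 0.19 lower in CHLA 06 than in CHLA 04 and 0.17 lower than in CHLA 05, both on the log2(TPM + 2) scale.

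**Figure D3:**
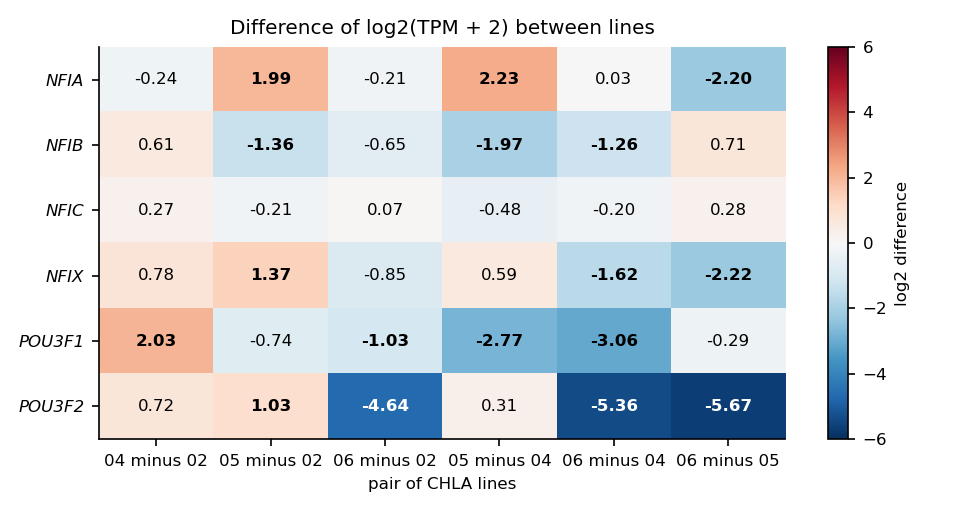
Difference of log2(TPM + 2) for the 6 genes tested in the 6 pairs of lines, the second line of each label subtracted from the first, with red for higher and blue for lower. Bold values reach 1 or more in size; the darkest cells are POU3F2 in CHLA 06, at -4.64 against CHLA 02, -5.36 against CHLA 04 and -5.67 against CHLA 05.

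The NFI genes were then read by transcript. One transcript with a very long last exon held most of the TPM of NFIA, NFIC and NFIX. ENST00000403491 held 69.6% to 86.9% of NFIA TPM, ENST00000589123 held 59.5% to 67.2% of NFIC TPM, and ENST00000360105 held 54.9% to 63.4% of NFIX TPM. Their last exons measure 7491, 6466 and 4162 bases. In NFIC and NFIX no other deposited transcript has a last exon over 2000 bases. The split among transcripts that share exons is the counting program's.

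The remaining transcripts at 10% or more of a gene in some library were ENST00000371187 of NFIA at 1.86% to 10.6%, ENST00000395111 of NFIC at 6.37% to 20.8%, ENST00000589537 of NFIC at 3.79% to 10.2%, and ENST00000587760 of NFIX at 21.0% to 31.9%. NFIB was spread over 6 such transcripts, none above 31.3%. The leading NFIB transcript was ENST00000380953 in CHLA 02, at 21.3%, and ENST00000397579 in CHLA 05, at 27.6%. That same ENST00000397579 took 31.3% in replicate 1 of CHLA 04 and 16.1% in replicate 2, so its share differed about as much between technical replicates as between lines.

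All 4 NFI genes hold a coding exon of 532 bases, which encodes much of the DNA-binding domain. It was part of 93.8% or more of the TPM of the transcripts that span it, in every library and gene. NFIC and NFIX, which both lie on chromosome 19, were the most alike in this exon, with 86.5% of bases identical and a longest shared run of 52 bases. The other pairs had 73.9% to 77.3% identity, and no pair shared a run as long as a read.

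By the TPM of deposited transcripts, a single internal exon of NFIX had an intermediate share, unlike its best matching exons in the other NFI genes. This exon, coding in GENCODE release 44 and flanked by ag and gt, was held by transcripts with 36.0% of the spanning TPM for CHLA 02, 43.9% and 40.4% for the CHLA 04 replicates, 36.7% for CHLA 05, and 43.2% and 40.3% for those of CHLA 06. CHLA 02 and CHLA 05 lay below both libraries of CHLA 04 and of CHLA 06, which overlapped each other, and the technical gap was about as large as the step between them. The best matching exon of NFIA was present in 96.4% to 99.8% of spanning TPM, and those of NFIB and NFIC in all of it. The 4 exons have lengths divisible by 3, so that leaving one out keeps the reading frame. They are shown to let the exon that varied be set beside its counterparts. In the sequences of NFIA, NFIB and NFIC the capitals mark bases aligned to the same base of NFIX, and in that of NFIX the bases shared by all 4.

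NFIX, chr19:13078613-13078735, plus strand: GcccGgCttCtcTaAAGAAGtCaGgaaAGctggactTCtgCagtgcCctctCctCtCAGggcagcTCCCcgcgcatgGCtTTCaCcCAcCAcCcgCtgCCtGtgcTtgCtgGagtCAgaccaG
NFIA, chr1:61383237-61383365, plus strand: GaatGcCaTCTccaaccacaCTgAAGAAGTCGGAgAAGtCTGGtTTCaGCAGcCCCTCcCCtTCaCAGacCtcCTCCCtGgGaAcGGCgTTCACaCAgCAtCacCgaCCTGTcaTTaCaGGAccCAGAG
NFIB, chr9:14125632-14125766, minus strand: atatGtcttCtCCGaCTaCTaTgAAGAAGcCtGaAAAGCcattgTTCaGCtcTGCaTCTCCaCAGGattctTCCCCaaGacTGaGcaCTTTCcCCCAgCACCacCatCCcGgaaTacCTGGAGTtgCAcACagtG
NFIC, chr19:3449014-3449139, plus strand: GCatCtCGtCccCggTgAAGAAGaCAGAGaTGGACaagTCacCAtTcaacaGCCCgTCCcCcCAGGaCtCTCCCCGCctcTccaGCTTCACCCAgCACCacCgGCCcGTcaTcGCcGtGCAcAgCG

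The alignment gave 65.1% identity of NFIX with NFIA, 58.5% with NFIB and 64.3% with NFIC, and the next best exon of each gene reached 60.9%, 56.1% and 57.3%. The NFIX transcript without the exon is the one with the long last exon. By recovered reads in place of TPM, the share with the exon fell to between 15.8% and 20.6%, so its size depends on how reads of the last exon are weighed. The share, and the contrast with the other NFI genes, also depend on which deposited transcript carries the long last exon. Whether the cells leave the exon out was not tested, because reads across exon junctions were not among the values used.

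**Figure D4:**
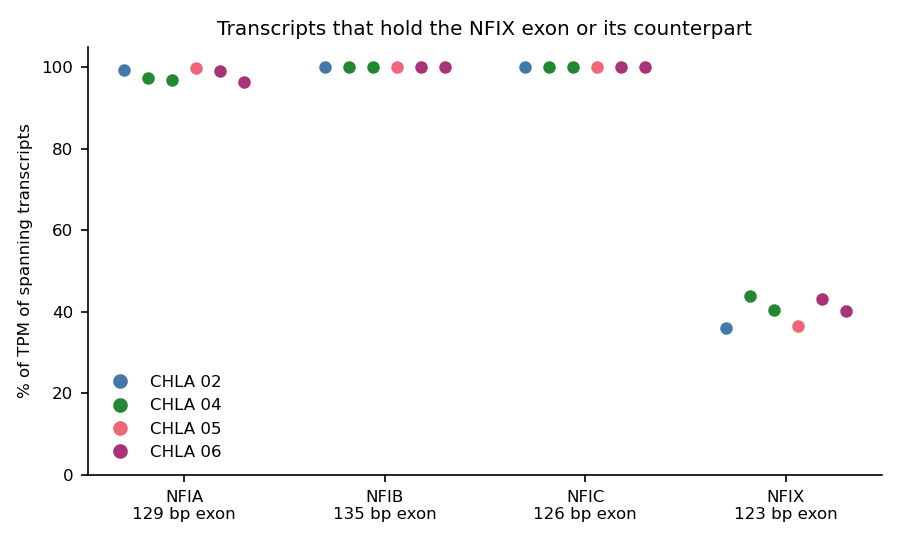
Share of the TPM of spanning transcripts that hold the varying exon of NFIX or its counterpart in NFIA, NFIB and NFIC, 1 point per library. NFIX lies between 36.0% and 43.9% and the other genes at 96.4% or more.

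The remaining variable internal exons, with a share between 10% and 90% in some library, were 2 of 12 in NFIA, 4 of 12 in NFIB and 2 of 9 in NFIC. The exon of 89 bases near the end of NFIB (chr9:14102422-14102510) was held by 53.9% of spanning TPM for CHLA 02, 71.0% and 54.9% for the CHLA 04 replicates, 56.6% for CHLA 05, and 48.2% and 45.4% for those of CHLA 06. The gap between the replicates of CHLA 04 was wider than that between CHLA 02 and CHLA 06.

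One of the start site windows of NFIA held an octamer, the sequence read by POU factors. The octamer (ATGCAAAT or ATTTGCAT, in capitals) was in 1.77% of all 35116 windows, in 1 of the 19 NFI windows and in none of the POU3 windows. The sequence is shown because it sets a POU motif at the start of an NFI gene. The nearest deposited transcript start, that of ENST00000407417, lies 47 bases away and had 1.27 TPM in CHLA 02, 0.780 and 0.614 TPM in CHLA 04, 3.25 TPM in CHLA 05, and 1.34 and 0.937 TPM in CHLA 06. This is a small part of NFIA, and the line with the highest level was again CHLA 05.

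NFIA, chr1:61076977-61077276, plus strand: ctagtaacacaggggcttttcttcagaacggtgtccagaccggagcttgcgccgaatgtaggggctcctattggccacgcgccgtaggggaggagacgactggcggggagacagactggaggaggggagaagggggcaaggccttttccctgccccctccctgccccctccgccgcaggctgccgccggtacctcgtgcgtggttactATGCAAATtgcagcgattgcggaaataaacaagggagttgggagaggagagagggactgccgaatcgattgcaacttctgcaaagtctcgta

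Long terminal repeat (LTR) elements inside the 7 genes were read from the separate LTR tables, whose TPM is scaled over LTR elements alone and cannot be set beside gene TPM. NFIA spans 54 elements and NFIB 21, and the other 5 genes span none. None of these elements was labelled HERVK-int or LTR5_Hs, the 2 labels counted here as HML-2, the human endogenous retrovirus group under study. Of these, 2 in NFIA and 5 in NFIB reached 10 reads in a library, all in introns of the deposited transcripts.

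The strongest was an LTR48B element in NFIB on its strand (chr9:14261464-14262064). It had 263 LTR TPM for CHLA 02, 419.9 and 265 for the CHLA 04 replicates, 73.2 for CHLA 05, and 145 and 110.1 for those of CHLA 06, on 40 to 189 reads. The order of the lines was that of NFIB itself, with CHLA 04 highest and CHLA 05 lowest, although replicate 2 of CHLA 04 was level with CHLA 02. THE1D (chr1:61298026-61298423) and MLT1A0 (chr1:61307146-61307496), on the strand of NFIA, had their highest values in CHLA 05, at 196 and 109.6 LTR TPM, as NFIA did. THE1D lay between 26.8 and 43.8 in the other libraries and MLT1A0 between 10.9 and 42.4.

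The other 4 elements of NFIB lay on the opposite strand. MLT1D (chr9:14359168-14359646) had 56.0 LTR TPM for CHLA 02, 39.0 and 73.2 for the CHLA 04 replicates, 4.59 for CHLA 05, and 6.42 and 14.0 for those of CHLA 06. MLT1B, a second MLT1A0 and MER50 had 1 read or none each in CHLA 05 and at most 4 in a library of CHLA 06. RP11-120J1.1, an antisense gene that overlaps NFIB without sharing an exon, had 11.6 TPM in CHLA 02, 16.3 and 23.7 TPM in CHLA 04, 0.988 TPM in CHLA 05, and 2.77 and 3.002 TPM in CHLA 06. The antisense gene, MLT1D, MLT1B and MER50 were thus higher in CHLA 02 and CHLA 04 than in the other lines, and MLT1A0 was not in replicate 1 of CHLA 04, with 2 reads. The kit kept the strand, but whether the counting used it is not given in the sources used here.

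Genes next to the others did not follow them in the same way. NFIA-AS1 was listed at 0 in all libraries and NFIA-AS2 stayed at 0.1996 TPM or less, and TM2D1, beyond NFIA, had 33.8 TPM in CHLA 05, its lowest value, where NFIA was highest. LYL1, an opposite-strand neighbour 237 bases from NFIX, had 3.84 TPM in CHLA 02, 0.317 and 0.647 TPM in CHLA 04, none in CHLA 05, and 3.70 and 4.37 TPM in CHLA 06, an order against that of NFIX. FBXL4, the neighbour of POU3F2 at 29048 bases, had 17.7 and 19.8 TPM in CHLA 06, above its 8.36 to 15.1 TPM elsewhere. RP5-884C9.2, on the opposite strand 520 bases from POU3F1, had 5 and 3 reads in CHLA 04 and 2 or fewer in the other libraries, too few to rank the lines. The antisense gene CTC-239J10.1 within NFIX, AC010649.1 beside NFIC and RP11-284P20.3 beside NFIB were listed at 0 throughout, and DAND5, SMIM24, RP11-436K8.1 and AC018730.4 stayed below 1 TPM. ZDHHC21 beside NFIB and UTP11L beside POU3F1 lay between 12.3 and 33.6 TPM and between 36.0 and 57.7 TPM. RP11-436D23.1, the far neighbour of POU3F2, reached 4.53 TPM in replicate 2 of CHLA 04 and was listed at 0 in CHLA 06.

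Some other POU genes were also near 0 in CHLA 06, and 1 of them in CHLA 05 as well. Of 11 other POU genes, 6 reached 1 TPM and 5 of these ranged by 1 or more on the log2(TPM + 2) scale over the lines, as 42.0% of all genes tested did. POU3F4, the remaining class III gene, had 25.8 TPM in CHLA 02, 60.3 and 47.5 TPM in CHLA 04, none in CHLA 05, and 0 and 0.0302 TPM in CHLA 06. POU4F1, a factor of sensory neurons, had 108 TPM in CHLA 02, 76.7 and 57.3 TPM in CHLA 04, 8.39 TPM in CHLA 05, and 0 and 0.0515 TPM in CHLA 06. In CHLA 05, then, POU3F2 was the one POU gene of classes III and IV above 10 TPM. POU2F1, which is broadly expressed, stayed between 22.7 and 45.6 TPM, and POU2F2 was highest in CHLA 06, at 14.7 and 17.1 TPM.

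Factors known to work with POU3F2 or NFI were read next. Of 8, 7 were tested and 6 ranged by 1 or more, beside 42.0% of all genes. SOX9, which acts with NFIA in gliogenesis, had 7.71 TPM in CHLA 02, 24.3 and 26.7 TPM in CHLA 04, 229 TPM in CHLA 05, and 0.0657 and 0.0298 TPM in CHLA 06. The peak of SOX9 in CHLA 05 fell in the same line as that of NFIA, but CHLA 06, at the NFIA level of CHLA 04, had almost no SOX9. SOX11 had 12.2 to 41.8 TPM in 4 libraries and at most 0.0269 TPM in CHLA 06, and SALL2 90.6 to 174.5 TPM against 24.2 and 25.4 TPM.

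The known targets of NFI, many of them genes of astrocytes, were mostly lower in CHLA 06 than in CHLA 04 and CHLA 05. In CHLA 06 the NFI sum and NFIX were also at their lowest, and NFIA was at the level of CHLA 04. NFIB in CHLA 06 was above that of CHLA 05 by 0.71 on the log2(TPM + 2) scale, or at -0.25 from it when the most abundant transcript alone was read. Of 13, 10 were tested, and CHLA 06 had 8 called against CHLA 04, where 29.4% of all genes were, and 8 against CHLA 05, where 25.9% were, all lower, with medians of -1.70 and -3.05 on the log2(TPM + 2) scale beside -0.19 and -0.17 for all genes. Against CHLA 02 only 4 were called, all lower, where 9.32% of all genes were called. The median there was -0.57, beside -0.04 for all genes. FABP7, a fatty acid binding protein of radial glia, had 756 TPM in CHLA 02, 2236 and 4102 TPM in CHLA 04, 1400 TPM in CHLA 05, and 0.566 and 1.43 TPM in CHLA 06. SLC1A3, a glutamate transporter, had 286 TPM in CHLA 02, 422 and 453 TPM in CHLA 04, 1047 TPM in CHLA 05, and 0.300 and 1.61 TPM in CHLA 06. GFAP, the intermediate filament of astrocytes, had 23.9, 45.3, 47.9 and 151 TPM in the first 4 libraries and 0.0419 and 0.0379 TPM in CHLA 06. SLC1A3 and GFAP peaked in CHLA 05 and FABP7 in CHLA 04. Whether the NFI genes had a part in the levels of these targets was not tested. EZH2, a histone methyltransferase that NFI represses in the mouse brain, had 39.5 TPM in CHLA 02, 64.7 and 104.6 TPM in CHLA 04, 136 TPM in CHLA 05, and 25.1 and 43.1 TPM in CHLA 06. EZH2 is counted above among the targets lower in CHLA 06 than in CHLA 04 and CHLA 05. The list thus mixes genes with different expected directions.

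Targets attributed to POU3 factors were called in both directions in CHLA 06. Of 8, 7 were tested, and 3 were higher and 2 lower than in CHLA 04, where 29.4% of all genes were called. Against CHLA 05 2 were higher and 3 lower, with a median of -0.64 and 25.9% of all genes called, and against CHLA 02 1 was higher and 4 lower, with a median of -1.54 and 9.32% of all genes called. DLL1, a Notch ligand, had 78.8 TPM in CHLA 02, 257 and 155 TPM in CHLA 04, 114 TPM in CHLA 05, and 0.204 and 0.480 TPM in CHLA 06. CRH, the corticotropin releasing hormone of hypothalamic neurons, had 301 TPM in CHLA 02, 0.153 and 0.282 TPM in CHLA 04, 1.09 TPM in CHLA 05, and 36.7 and 148 TPM in CHLA 06. DLL1 was thus near 0 in CHLA 06 as POU3F2 was, though its highest line was CHLA 04 and not CHLA 05, and CRH was lowest in CHLA 04 and CHLA 05. FABP7 also stands in this list.

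**Figure D5:**
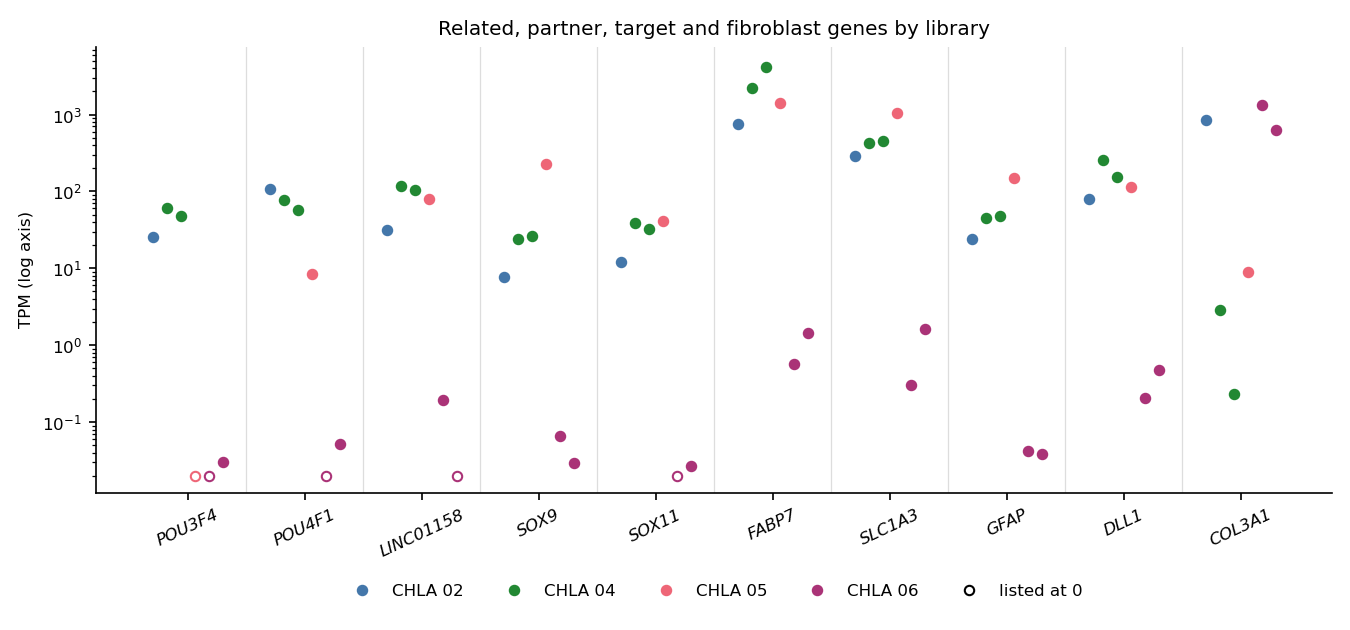
TPM of 10 genes beside the members on a log axis, 1 point per library coloured by cell line, with open points listed at 0 and drawn at the bottom. In CHLA 06 the first 9 genes stay at 1.61 TPM or less, whereas COL3A1 has 628 and 1332 TPM there and 0.231 and 2.91 TPM in CHLA 04.

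Markers of other cell types also differed between the lines. All 6 astroglial markers tested of 8 ranged by 1 or more, beside 42.0% of all genes, with summed TPM of 1110 for CHLA 02, 3701 for CHLA 04, 2775 for CHLA 05 and 21.6 for CHLA 06. In CHLA 06 most of this was GJA1, a gap junction protein that is not particular to astrocytes, at 17.9 and 20.3 TPM. The other tested markers, GFAP, AQP4, S100B, SLC1A3 and FABP7, also stand in the list of NFI targets. The astroglial counts therefore repeat those genes and are not a separate observation. FABP7 alone had a mean of 756 TPM in CHLA 02, 3169 TPM in CHLA 04 and 1400 TPM in CHLA 05. Of 6 fibroblast markers 5 ranged by 1 or more, with summed TPM of 1259 for CHLA 02, 18.8 for CHLA 04, 51.2 for CHLA 05 and 1551 for CHLA 06. COL1A1 had 387 TPM in CHLA 02 and 600.3 and 459 TPM in CHLA 06, and at most 11.5 TPM in the other lines, while COL1A2, its partner chain, had 0.0259 TPM or less in CHLA 06. DCN reached 42.9 TPM in CHLA 06. PDGFRB, a receptor in the same list, was lowest in CHLA 06, at 4.45 and 3.85 TPM, against 9.41 to 23.4 TPM elsewhere. No fibroblast marker was called between CHLA 06 and CHLA 02, a pair in which 9.32% of all genes were called. The part of these markers in the POU3F2 result was not tested.

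Of the neuronal markers 4 of 8 tested ranged by 1 or more, a share close to the 42.0% of all genes, 9 identifiers being listed because TUBB3 has 2. MAP2 had 298 TPM in CHLA 02, 745 and 624 TPM in CHLA 04, 915 TPM in CHLA 05, and 7.20 and 5.41 TPM in CHLA 06, and DCX, which marks young neurons, stayed below 1 TPM in all libraries. The more abundant of the TUBB3 entries had 205 to 455 TPM, and SYP 2.32 to 22.9 TPM. Of 5 neural progenitor markers 4 ranged by 1 or more, led by VIM at 4629 to 19464 TPM, with CHLA 06 highest, and NES lay between 5.21 and 27.6 TPM. SOX2 was at 0.471 TPM or less outside CHLA 05, where it had 4.03 TPM.

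Oligodendrocyte lineage markers were highest in CHLA 05 in all 4 of the 5 genes tested, with OLIG2 at 14.2 TPM, OLIG1 at 31.9 TPM, CSPG4 at 42.6 TPM and PDGFRA at 24.9 TPM, whereas SOX10 was at 0 in 5 libraries. Of 3 immune markers only CD68 was tested, at 6.34 and 22.6 TPM in CHLA 06 and 6.36 TPM in CHLA 02, with PTPRC at 0.224 TPM or less and AIF1 at 0. Of 3 endothelial markers only VWF was tested, at 3.70 TPM or less, with CDH5 and PECAM1 near 0. EGR2, a factor of myelinating Schwann cells, had 14.1 and 3.41 TPM in CHLA 06, 7.69 TPM in CHLA 02 and 3.64 TPM in CHLA 05.

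The genes whose pattern over the 6 libraries was nearest to a member's, by Euclidean distance of centred log2(TPM + 2) values, were listed as a description. Nearest to POU3F2 were FGD4, TOX and PCDH8, at distances of 0.49 to 0.65 against a median of 5.94 over all genes. FGD4, an activator of CDC42, had 44.9 TPM in CHLA 02, 87.5 and 76.0 TPM in CHLA 04, 77.2 TPM in CHLA 05, and 0.127 and 0.460 TPM in CHLA 06. Nearest to POU3F1 were CARM1P1, CHD5 and REC8, of which CHD5, a neural chromatin remodeller, had 5.72 TPM in CHLA 02, 25.4 and 20.7 TPM in CHLA 04 and 1.52 TPM or less elsewhere. No member was among the 3 nearest to NFIA, NFIB, NFIX, POU3F1 or POU3F2, and the ranking was not made for NFIC and POU3F3.

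Nearest to NFIA were RP11-4L24.4 and SMIM5, both highest in CHLA 05, at 33.0 and 8.56 TPM. PPP1R3C, RP11-403B2.7 and B3GNT9 were nearest to NFIB and peaked in CHLA 04 as it did, with PPP1R3C, a glycogen targeting subunit of protein phosphatase 1, at 38.1 and 25.9 TPM there and 6.13 TPM in CHLA 05. BMS1P10, AMOT and CXXC5 were nearest to NFIX, and in all 3 replicate 1 exceeded replicate 2 in both CHLA 04 and CHLA 06, as it did in NFIX. The distance includes the technical replicates, so the choice of these genes favors a shared gap, which is not separate evidence for it. CXXC5, a zinc finger protein, had 43.3 and 27.02 TPM in CHLA 04 and 9.77 and 6.31 TPM in CHLA 06.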

How the data were processed

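Total RNA of 4 AT/RT cell lines was sequenced as 6 stranded, paired-end libraries with reads of 125 bases. The submitters' processing notes name CASAVA 1.8.2, FastQC, Trimmomatic and the build GRCh38, and the study's methods name the RNA-Seq tool of CLC Genomics Workbench. The authors deposited TPM values per transcript and, scaled over LTR elements alone, TPM values per LTR element. The strand setting and the program's version are not given in the sources used here.

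Transcript TPM was summed by gene identifier. TPM values divided by the value of 1 read gave whole reads, within 0.05, for 99.65% or more of the transcript values of each library, which fixed depth and the exact Poisson 95% intervals. These intervals cover counting error only. No test between lines was run, because each line is 1 biological sample. Technical replicates were averaged on the log2(TPM + 2) scale, and a difference of 1 or more was called among genes with 1 TPM or more in at least 1 library. The members and the 12 gene lists were chosen with earlier results of these data known.

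Named genes are the 7 members, their neighbours, list genes, and the 3 genes nearest in pattern to each member called in some pair of lines, with chromosome Y genes and XIST left out of that ranking. Promoter windows are from RefSeq GRCh38.p14, and coding exons from GENCODE release 44. Python 3.11.15, numpy 2.4.6, pandas 2.3.3, scipy 1.17.1, Biopython 1.88, matplotlib 3.10.9 and samtools 1.23.1 were used, and the calculations were tested on simulated data. Other pseudocounts, filters, scalings, technical replicate choices and transcript summaries were tried as alternatives. Some genes of the lists are not reported here by name.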

Additional observations from a re-analysis of the deposited data

How the results depend on the processing

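No paired analysis was possible because each line is 1 biological sample and the replicate numbers mark technical replicates of a line. No direction of a called difference reversed under any alternative run, and 480 of 603 alternative values stayed within the limits set. Part of these values could not move. A choice among the replicates of a line leaves a pair without that line unchanged. POU3F1 and POU3F2 have 1 transcript each, so reading the most abundant one changes nothing. The count is therefore not read as a measure of stability. The members called in CHLA 04 against CHLA 02 rose from 1 to 2 with the higher of the technical replicates and with the most abundant transcript alone, where NFIB was added at 1.12 on the log2(TPM + 2) scale. Leaving out a library of CHLA 04 gave 1 to 2, and without replicate 2 NFIX was added at 1.08. The members called in CHLA 06 against CHLA 02 fell from 2 to 1 after quantile normalization and with the higher of the replicates, and POU3F1 was the one lost. Without CHLA 06 replicate 1 the count stayed at 2, but POU3F1 was lost, at -0.998, and NFIX was gained, at -1.18, whereas NFIX was at -0.52 without replicate 2. In CHLA 05 against CHLA 02 the count fell from 4 to 3 after quantile normalization and median ratio rescaling, where POU3F2 was lost at 0.93, and with the most abundant transcript alone, where NFIB was lost at -0.51. It rose to 5 with pseudocounts of 1 and 0.1, where POU3F1 was added.

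With a pseudocount of 0.1, the genes called were 4794 for CHLA 04 against CHLA 02, 5155 for CHLA 05 against CHLA 02, 3316 for CHLA 06 against CHLA 02 and 4663 for CHLA 05 against CHLA 04, and the neuronal markers with a range of 1 or more rose from 4 to 7. The neural progenitor markers with such a range fell from 4 to 2 after quantile normalization. The share of recovered reads with the NFIX exon was 15.8% for CHLA 02, 20.6% and 17.8% for the CHLA 04 replicates, 16.4% for CHLA 05, and 18.7% and 18.1% for those of CHLA 06. The cause of these moves was not tested. The share of calls that were higher in the first line moved from 21.2% to 37.3% for CHLA 06 against CHLA 02 and from 37.5% to 49.2% for CHLA 06 against CHLA 05 after quantile normalization, and from 42.3% to 53.4% for CHLA 06 against CHLA 04 after rescaling by the median ratio. With the higher of the replicates it moved from 47% to 65.1% for CHLA 04 against CHLA 02, from 21.2% to 33.4% for CHLA 06 against CHLA 02, and from 58.5% to 41.6% for CHLA 05 against CHLA 04. Depth limits POU3F3 in every library, and POU3F1 and POU3F2 in CHLA 06.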
